A study of Mus musculus with 3 samples.

Results

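The granins Chga, Chgb, Scg2, Scg3 and Vgf, with the genes that process or escort them in secretory granules (Scg5, Pcsk1n, Pcsk1, Pcsk2 and Cpe), were examined in single cells of mouse neuroblastoma. These 10 genes were chosen by name out of the 31053 genes of the count tables, and 9 of them had at least 1 unique molecular identifier (UMI, a tag for 1 captured RNA molecule) in the cells kept by the authors. Each of 3 TH-MYCN mice gave 1 whole tumor, and the mice were 62 (tumor 1), 79 (tumor 2) and 63 (tumor 3) days old. Every mouse was heterozygous for a MYCN transgene driven by the tyrosine hydroxylase promoter, so the oncogene is active in catecholamine-making cells of the sympathetic lineage while the host keeps its immune system. No tumor-free sample was analysed here, and the comparisons below are between cell classes of the same tumors, or between single libraries.

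Granins are acidic proteins that aggregate in the trans-Golgi network and help to form dense-core granules, the organelles from which chromaffin cells and sympathetic neurons release catecholamines and peptides on stimulation. Within the granule, prohormone convertases cut the granins and other precursors at pairs of basic residues, and carboxypeptidase E trims the basic residues that are left. Chromogranin A in blood and tissue is a long-used marker of neuroendocrine tumors, neuroblastoma included.

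Kept cells numbered 1914, 1221 and 2515 in tumors 1, 2 and 3, with medians of 4282.5, 1594 and 1816 UMIs. Tumors 1 and 2 shared 3 kept barcodes, tumors 2 and 3 shared 1 and tumors 1 and 3 shared none. Clusters named from marker genes gave 3364 tumor-like cells (357, 936 and 2071 in the 3 tumors) and 11 other classes, and a cluster of 126 cells, 111 of them from tumor 1, was left unnamed. Levels are CPM, the UMIs of a gene in a class of a tumor scaled to a total of 1000000 UMIs, with exact 95% Poisson intervals that cover counting error only. Reads came from transcript 3′ ends, so no correction for gene length was applied. Clusters 0, 1, 2, 3 and 6 carried the tumor-like label. Its 11 markers together stood at 2431, 1819 and 2092 CPM in tumors 1, 2 and 3. The 44 tumor 1 cells of cluster 3 went against it, with 460 CPM of the 11 tumor markers together against 1650 CPM and 1935 CPM in the same cluster of tumors 2 and 3. Tumor-like cells of tumor 1 were also shallow, with a median of 926 UMIs, and held 6788 CPM of 5 erythroid markers against 144 and 429 CPM in tumors 2 and 3. The part of these signals in the values of tumor 1 was not tested.

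The start regions of the genes were read first, since several members share a short DNA motif there. Promoter sequences (RefSeq, GRCm38.p6, 250 bases before to 50 after the start) were found for 8 members, and there was no entry for Cpe and Vgf. TGACGTCA, the full cyclic AMP response element, was searched on both strands and was present in Scg2, Chgb and Pcsk1, which is 3 of 8, against 588 of all 32851 promoters (1.79%). The core TGACGT, which the full element contains on both strands, was in 5 of 8, with Chga and Scg5 added, against 7.51% of all promoters. The E-box CACGTG, a motif that MYCN can bind, was in 0 of 8 members and in 7.15% of all promoters. A match says only that these letters are in the window. For the 3 members with the full element and for Chga, 30 bases around the motif are shown, with the element or its core in capitals. Positions count from the RefSeq start, which for Chgb, Scg2 and Pcsk1 lies 364, 94 and 31 bases past the GENCODE start used for the gene positions below, so the windows of Chgb and Scg2 are inside the GENCODE gene.
Scg2 (chr1:79440076-79440105, minus strand): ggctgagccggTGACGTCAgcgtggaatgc
Chgb (chr2:132781559-132781588, plus strand): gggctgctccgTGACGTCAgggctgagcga
Chga (chr12:102554885-102554914, plus strand): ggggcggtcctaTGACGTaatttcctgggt
Pcsk1 (chr13:75089768-75089797, plus strand): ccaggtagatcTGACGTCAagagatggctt
The element began 68, 72 and 78 bases before the start of Scg2, Chgb and Pcsk1, and the core 44 bases before that of Chga. Presence of the element did not order the levels: as given below, Chgb had the highest level of the 10 genes in tumor-like cells, Scg2 was near the detection limit and Pcsk1 was not detected.

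Chgb, on chromosome 2 from 132781278 to 132795079 of GRCm38, encodes chromogranin B and was the most abundant member. It stood at 485 CPM (432 to 543) in tumor-like cells of tumor 1, at 831 CPM (789 to 874) in tumor 2 and at 908 CPM (878 to 938) in tumor 3. Tumor 1 lay below the other tumors in this clustering, but this order depended on it: without integration of the libraries 25 cells of tumor 1 remained tumor-like in place of 357, and Chgb stood at 1189 CPM there (1043 to 1348) against 828 and 908 CPM in tumors 2 and 3. Chga, on chromosome 12 from 102554969 to 102565028, encodes chromogranin A and had 95.04, 233 and 168 CPM in the 3 tumors. Without integration tumor 1 was at 255 CPM on these 25 cells, against 231 and 167 CPM, so that the order of the tumors turned for Chga too. In the main clustering, 1 cell held 105 of the 301 Chgb UMIs and 37 of the 59 Chga UMIs of tumor 1. Levels without integration were not computed without that cell, so neither turn is shown to hold beyond it. Of the 25 cells, 14 lay in a cluster led by Pde10a and Miat among others, leading genes also of the Chgb-rich cluster 6 described below. A cluster led by globin genes, with 294 tumor 1 cells and 9 tumor markers found, was left unnamed without integration. The turned order thus rests on a small part of the tumor-like cells of tumor 1.

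The other granins were lower. Scg3 (chromosome 9, 75643189 to 75684056), the secretogranin that tethers chromogranin A to cholesterol-rich granule membrane, had 46.7, 79.2 and 61.1 CPM in tumor-like cells. Vgf (chromosome 5, 137026392 to 137033351), a granin-like precursor induced by nerve growth factor, had 17.7, 31.2 and 20.5 CPM. For both genes the counting intervals of tumors 1 and 3 overlapped. Scg2 (chromosome 1, 79434669 to 79440120), secretogranin II and the source of secretoneurin, had 8.05, 5.58 and 3.07 CPM on 27 UMIs in all, too few to order the tumors.

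Among the processing genes, the inhibitors and helpers outweighed the convertases. Pcsk1n (chromosome X, 7919822 to 7924410), which encodes the PC1 inhibitor proSAAS, had 156, 316 and 243 CPM, and Scg5 (chromosome 2, 113776362 to 113829121), which encodes 7B2, the chaperone of PC2, had 48.3, 108 and 99.7 CPM. Pcsk2 (chromosome 2, 143546156 to 143816285), the convertase PC2 that 7B2 serves, had 17.7, 9.48 and 20.5 CPM. Pcsk1 (chromosome 13, 75089826 to 75134861), the convertase PC1 that proSAAS inhibits, had 0 UMIs in every class of all 3 tumors, which allows at most 4.83, 1.67 and 0.767 CPM in tumor-like cells (3 counts of each library's total). Both inhibitor or chaperone genes were thus above the gene of their partner in 3 of 3 tumors, by UMI counts. Cpe (chromosome 8, 64592542 to 64693054) had 69.3, 78.1 and 72.9 CPM, with overlapping intervals. Without integration tumor 1, then 25 cells, was at 157 CPM (107 to 222) against 78.6 and 73.1 CPM.

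**Figure D1:**
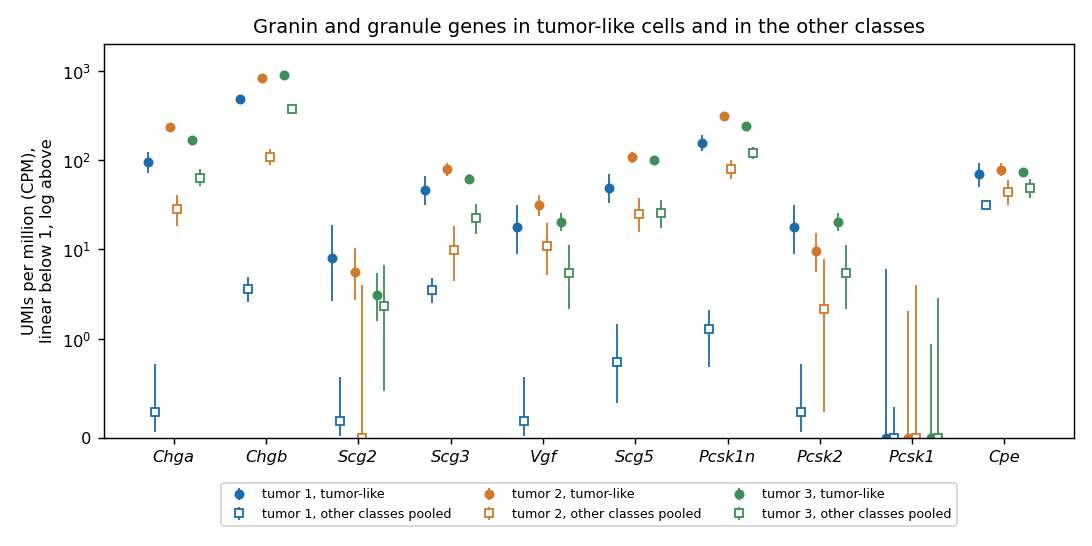
CPM of each of the 10 genes (log axis above 1 and linear below) in tumor-like cells (filled circles) and in all other named cells pooled (open squares) of tumors 1, 2 and 3, with 95% Poisson intervals. Chgb is the highest and Pcsk1 sits at 0, and the ratio of circle to square for Chgb is 136, 7.63 and 2.43 in tumors 1, 2 and 3.

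The question of which cells carry these genes was then addressed with a first look at free RNA, the RNA of broken cells that enters every droplet. Chgb in all other named classes pooled had 3.57 CPM in tumor 1, 109 CPM in tumor 2 and 373 CPM in tumor 3, which is 0.737%, 13.1% and 41.1% of its tumor-like level. A reference list of 11 neuronal genes of tumor cells, Stmn2 and Th among them, reached 1.75%, 34.0% and 44.6% of its tumor-like level in the same cells. RNA of tumor cells in the other classes was thus lowest in tumor 1 and highest in tumor 3, for the neuronal list as for Chgb.

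In tumor 1, Chgb was 136-fold higher in tumor-like cells than in the other classes (98.0 to 192), Pcsk1n 122-fold (70.7 to 227) and Scg5 63.1-fold (29.2 to 151). Chga was 372-fold higher, with an interval of 121 to 1857, since the other classes held 3 UMIs. In tumor 3 the same ratios were 2.43 for Chgb, 2.02 for Pcsk1n, 3.93 for Scg5 and 2.64 for Chga. T cell-like cells of tumor 3 had 881 CPM of Chgb (83 UMIs in 64 cells) and B cell-like cells 767 CPM (31 UMIs in 26 cells), against 908 CPM in tumor-like cells of that library. The same classes had 7.53 and 5.16 CPM in tumor 1.

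The share of cells with a Chgb UMI carried the same limit. With each cell thinned to 500 UMIs, it was 7.28% (exact binomial interval 4.81 to 10.5), 28.6% (25.8 to 31.6) and 35.8% (33.7 to 37.9) of tumor-like cells in tumors 1, 2 and 3. Among T cell-like cells, which should lack the gene, it was 0.680%, 8.89% and 34.4%, with median depths of 4902, 1518 and 1468 UMIs against 926, 1545 and 1810 UMIs in tumor-like cells. Without thinning, tumor-like cells had 15.97%, 56.1% and 75.3%, and T cell-like cells 3.40%, 26.7% and 73.4%. In tumor 3 the share in T cell-like cells was within counting error of that in tumor-like cells, so it does not set the classes apart there. The part of free RNA, of doublets and of cell naming in it was not tested.

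Counts summed per tumor and class were compared with edgeR's quasi-likelihood test, tumor-like cells against the mean of the other classes, with Benjamini-Hochberg adjustment over 9036 genes. Of the 10 genes, 7 passed the filter on low counts and 4 were called higher in tumor-like cells, where 11.9% of all tested genes were. Scg3 and Scg5 (both adjusted p = 0.0119, edgeR), Pcsk2 (0.0213) and Chga (0.0269) rose, and 0 were called lower. Chgb (adjusted p = 0.0579, edgeR), Pcsk1n (0.0564) and Cpe (0.0726) did not pass. All 7 were nevertheless above the pooled other classes in 3 of 3 tumors, and with the tumor as a block, since the classes of a tumor come from 1 animal, all 7 were called (adjusted p of 7.36e-06 for Chgb, 0.000113 for Pcsk1n and 0.0434 for Cpe, edgeR), where 16.9% of all tested genes were. Each of the 7 was at 0 in at least 1 small class, so that a fitted fold depends on the prior count and the ratios of CPM above give the size. Without tumor 1, 2 of 5 tested members were called (Chga and Scg5), without tumor 2, 4 of 8 (Pcsk2, Scg3, Scg5 and Vgf), and without tumor 3, 7 of 7. Of all genes tested, 254 of 4275, 1154 of 12100 and 1111 of 11636 were higher in these 3 fits. Against the other classes pooled into 1 sum per tumor, Scg3, Scg5 and Pcsk2 were called with the block (11.9% of all tested genes higher), and 2 members without it (7.4%).

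**Figure D2:**
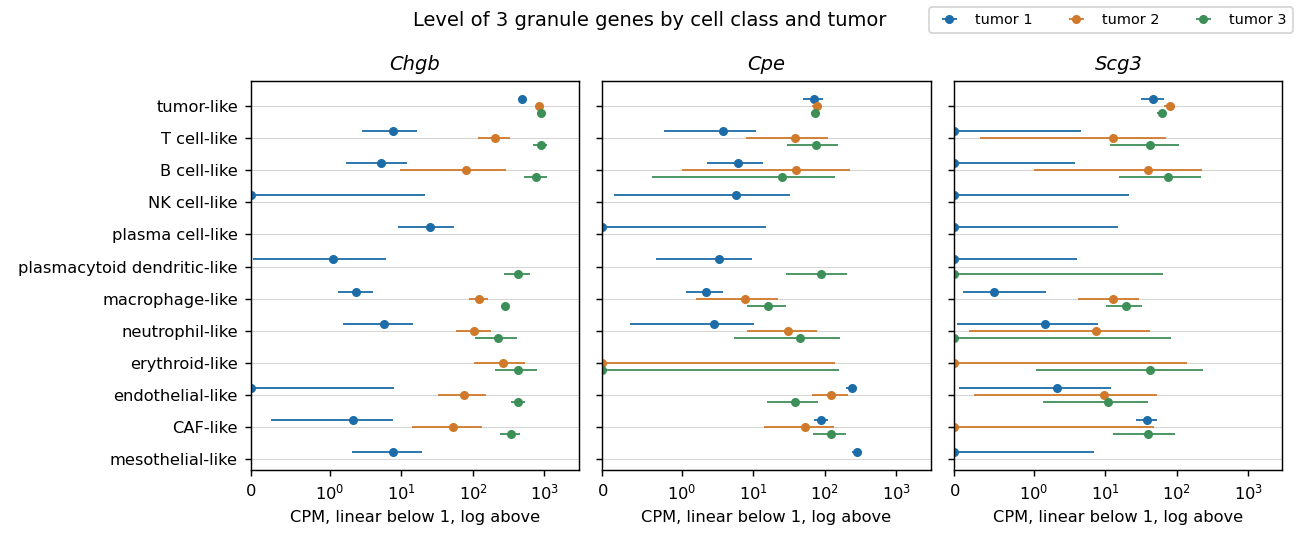
CPM (log axis above 1, linear below) of Chgb, Cpe and Scg3 in each class with at least 10 cells, for tumors 1, 2 and 3, with 95% Poisson intervals. Chgb is higher in tumor 3 than in tumor 1 in every class shown for both, while Cpe of tumor 1 stays high in endothelial-like, CAF-like and mesothelial-like cells at 237, 88.1 and 279.6 CPM.

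To look for members that another class carries itself, the UMIs of each gene were set against the number expected if the class held free RNA of tumor-like cells alone, scaled by the neuronal list. Classes with fewer than 10 cells in a tumor were included here. Over 99 pairs of a detected member and a class, 8 had an interval above 1. The intervals were not adjusted for the number of pairs, and the share over all genes was not computed. Chgb did not exceed the expectation in macrophage-like cells (253 UMIs against 339 expected, ratio 0.745, 0.656 to 0.843), T cell-like cells (ratio 0.862, 0.705 to 1.04) or endothelial-like cells (0.675, 0.540 to 0.834), and only plasma cell-like cells were above it, at 2.36 (1.08 to 4.49) on 9 UMIs. Of these, 6 lay in the 21 cells of tumor 1 and the others in tumors 2 and 3, with 1 cell each. In tumor 1 alone, endothelial-like cells had 0 Chgb UMIs where 9.49 were expected. The interval of Chgb thus did not lie above the free RNA level in 10 of 11 classes. In the other classes of each tumor, though, Chgb reached a smaller share of its tumor-like level than the list did. The expectation can therefore be too high for Chgb, and a class at or below it is not shown to lack Chgb of its own. The remaining pairs were Scg3 in CAF-like cells (8.73), Scg5 in mesothelial-like cells (2.76 on 6 UMIs), and Cpe in 5 classes.

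Cpe had 17.99 times the expected UMIs in CAF-like cells (103 UMIs), 11.7 times in endothelial-like cells (131 UMIs) and 89.1 times in mesothelial-like cells (171 UMIs, 76.3 to 104). It also passed in NK cell-like (3.14) and plasmacytoid dendritic-like cells (2.96), on 5 and 9 UMIs. Of the 5, 1 lay in the 32 NK cell-like cells of tumor 1 and the others in 7 and 8 cells of tumors 2 and 3. By CPM, mesothelial-like cells of tumor 1 had 279.6 CPM and endothelial-like cells 237 CPM, each above the 69.3 CPM of tumor-like cells, and all 16 mesothelial-like cells there had a UMI at a median depth of 36576.5 UMIs. Endothelial-like cells had 124 CPM in tumor 2 and 38.6 CPM in tumor 3, where their ratio to free RNA was 0.959 (0.386 to 1.98) on 7 UMIs. In tumor 3 this class had 62 cells, but 33 at resolutions 0.5 and 2, where tumor-like cells went from 2071 to 2100. The second label of its cluster was tumor-like, by 6 markers. Its tumor 3 values, those of Chgb included, were not taken without the cells that moved. CAF-like cells had 88.1, 52.1 and 120 CPM.

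Among the classes other than tumor-like, edgeR called Cpe higher in endothelial-like (adjusted p = 0.0018), CAF-like (0.00952) and mesothelial-like cells, against the mean of the remaining non-tumor classes. The calls were made in comparisons where 10.6%, 15.6% and 9.37% of all tested genes were higher. No member was called in B cell-like (2.05% of all tested genes higher), T cell-like (1.58%), NK cell-like (1.58%), macrophage-like (9.83%), neutrophil-like (15.3%), erythroid-like (0.221%), plasma cell-like (2.79%) or plasmacytoid dendritic-like cells (4.67%). Mesothelial-like cells formed a sum in tumor 1 only, so that this call has no spread between animals behind it. Without tumor 2 the CAF-like call was lost, while without tumor 1 the CAF-like call was the 1 left. Scg3 was also called in CAF-like cells (adjusted p = 0.0144, edgeR), but 30 of the 36 Scg3 UMIs of tumor 1 lay in 1 cell. That cell had 45953 UMIs, 0 of them Chga or Chgb, with 442 of Dcn and 278 of Col1a1, fibroblast matrix genes. Without it Scg3 stood at 6.61 CPM in CAF-like cells of tumor 1 and the call was lost (adjusted p = 0.236, edgeR).

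**Figure D3:**
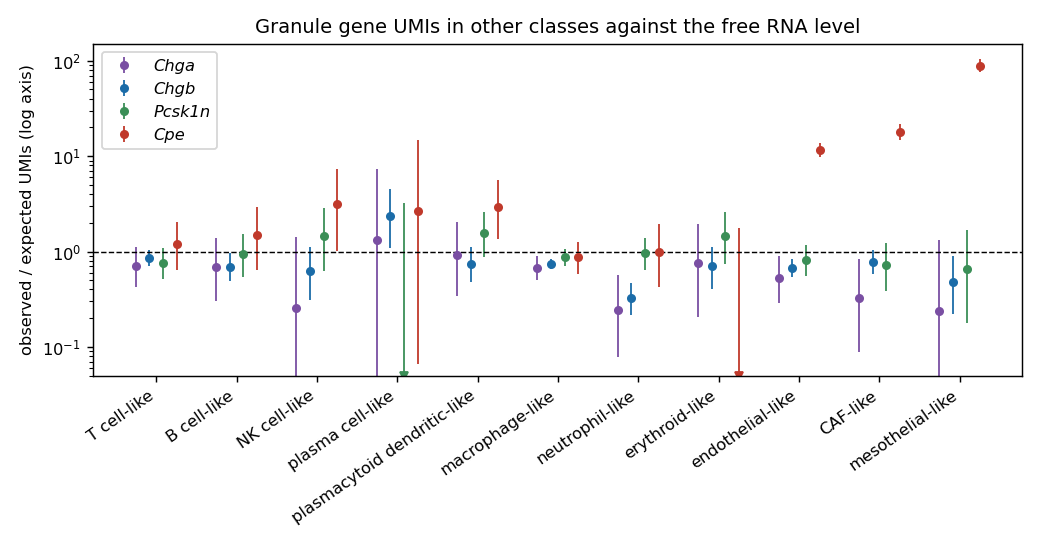
Observed over expected UMIs (log axis) of Chga, Chgb, Pcsk1n and Cpe in each class other than tumor-like, all tumors summed, with 95% Poisson intervals on the observed UMIs. The dashed line marks what free RNA of tumor-like cells would give. Triangles mark 0 UMIs, drawn at the axis floor. Cpe stands at 11.7, 17.99 and 89.1 in endothelial-like, CAF-like and mesothelial-like cells, and Chgb at or below 0.862 in all classes but plasma cell-like.

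Within tumor-like cells the genes were unevenly spread, and in tumor 1 few cells held them. Of the 301 Chgb UMIs of tumor 1, 212 (70.4%) lay in the 16 cells of cluster 6, and 105 in a single cell of 29305 UMIs. That cell also held 37 of 59 Chga UMIs and 28 of 97 Pcsk1n UMIs. Without it tumor 1 stood at 331 CPM of Chgb, 37.2 CPM of Chga and 117 CPM of Pcsk1n. In tumors 2 and 3, at most 36 of 1490 and 19 of 3549 Chgb UMIs lay in 1 cell.

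Cluster 6, with the nuclear long noncoding RNAs Kcnq1ot1, Meg3 and Malat1 among its leading genes, had the highest Chgb level of the 5 clusters in each tumor, at 1491 CPM (16 cells), 1536 CPM (89 cells) and 1231 CPM (190 cells). Without the richest cell it stood at 948 CPM in tumor 1, and at resolution 2 another cluster was the highest in tumor 2, at 1716 CPM. The 16 cells of tumor 1 held 142213 UMIs at a median of 2750, with cells of 29305, 33885 and 37710 UMIs among them. Among clusters of at least 20 cells, cluster 1 was the highest in tumor 1, at 625 CPM. The lowest level among clusters of at least 20 cells was 0 CPM in tumor 1, in the 44 cells of cluster 3 that went against their label, 341 CPM in tumor 2 and 760 CPM in tumor 3. The highest cluster was thus 4.499 times the lowest in tumor 2 and 1.62 times in tumor 3. Vgf spread more in tumor 2, from 3.63 to 70.8 CPM, and Pcsk2 was highest in cluster 6 of tumor 3, at 68.9 CPM against 11.4 CPM in the lowest cluster. Scg5 and Pcsk1n differed little between clusters of tumor 3, by 1.24 and 1.26 times. Clusters were formed without these genes but from the same cells, so these levels are descriptions.

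**Figure D4:**
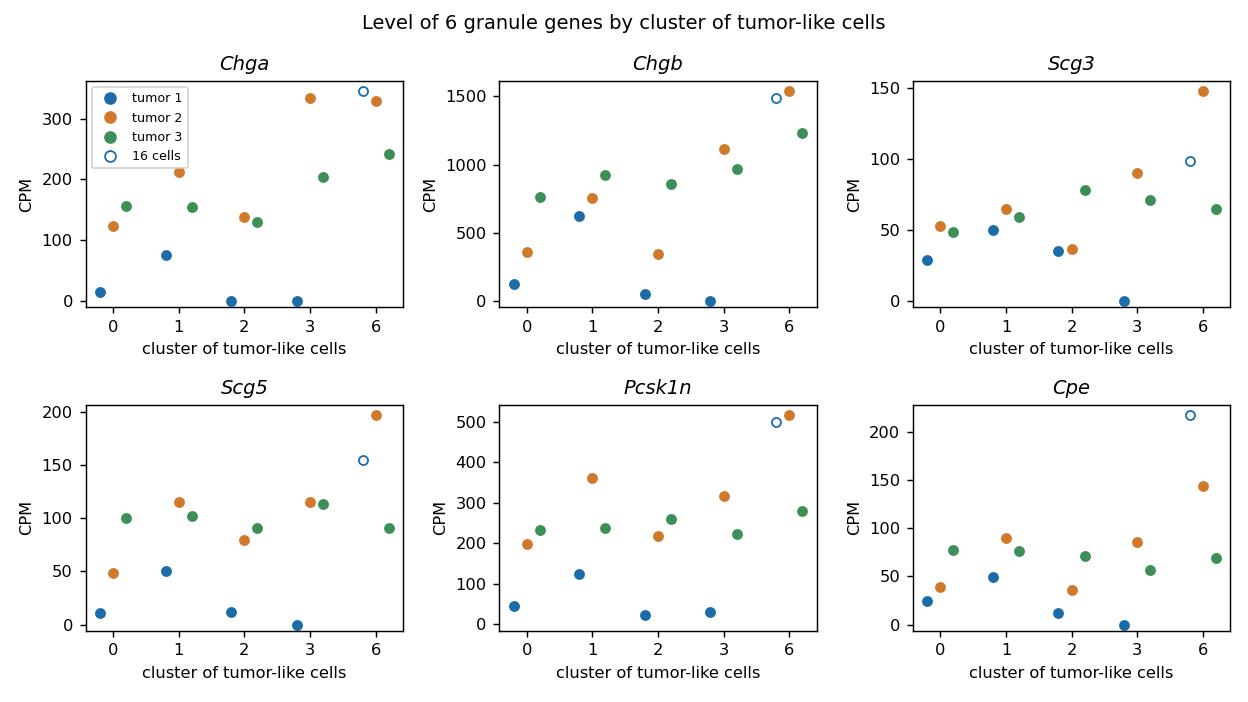
CPM of 6 granule genes in the clusters of tumor-like cells (numbered 0, 1, 2, 3 and 6), per tumor, on linear axes. The open circle is cluster 6 of tumor 1 with 16 cells. Chgb is highest in cluster 6 of each tumor, between 1231 and 1536 CPM.

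The clusters also differed in mitochondrial RNA, with 0.272 to 1.43% of UMIs in clusters 0 and 2 and 8.37 to 10.05% in clusters 3 and 6. Tumor-like cells were therefore divided by their share of mitochondrial UMIs, at edges chosen after the values were seen, and levels were given as CPM of non-mitochondrial UMIs. In cells below 2%, Chgb was at 186, 382 and 796 CPM in tumors 1, 2 and 3. From 2 to below 6% it was at 858, 1008 and 964 CPM, and at 6% or more at 1234, 1339 and 1263 CPM. Chgb, Chga and Pcsk1n were thus higher in each successive range of each tumor, but in tumor 1 the step to the highest range rested on 1 cell for Chgb and Chga.

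The neuronal reference list lay between 4855 and 6215 CPM over the same ranges and tumors. In the highest range tumor 1 was no longer the lowest by more than counting error, but without its richest cell it had 637 CPM of Chgb there, below its level in the middle range. Chga went from 19.9 to 291 CPM in tumor 1, from 126 to 333 CPM in tumor 2 and from 153 to 242 CPM in tumor 3, between the lowest and the highest range. Without that cell, Chga of tumor 1 was at 49.6 CPM in the highest range, against 156 CPM in the middle one. Malat1 went from 2116 to 18172 CPM in tumor 1, and the part of mitochondrial share, of depth and of cell state in these differences was not tested.

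**Figure D5:**
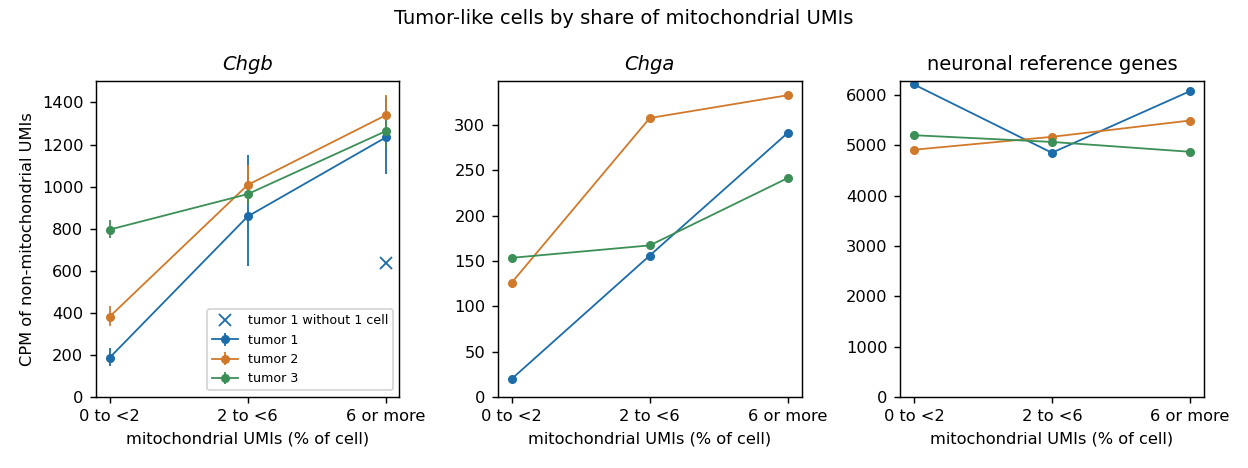
Chgb, Chga and the sum of 11 neuronal reference genes in tumor-like cells of tumors 1, 2 and 3, as CPM of non-mitochondrial UMIs, in 3 ranges of the share of mitochondrial UMIs, with 95% Poisson intervals for Chgb. The cross marks tumor 1 without 1 cell, at 637 CPM. Chgb goes from 186, 382 and 796 CPM to between 1234 and 1339 CPM, and the reference genes stay between 4855 and 6215 CPM.

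Genes most like each member were sought among 3056 genes, over 14 sums of tumor-like clusters and tumors centred within tumors. The closest to Chgb were Rpn1, a subunit of the oligosaccharyltransferase of the endoplasmic reticulum (Pearson r = 0.984), Cpe (0.981) and Dlk1, a membrane protein of chromaffin cells (0.981). Without the 4 sums of tumor 1 these r were 0.912, 0.895 and 0.939. Chga was closest to Cntfr, a receptor for ciliary neurotrophic factor (0.983), and to the semaphorin receptor Nrp2 (0.978), and without tumor 1 these r were 0.826 and 0.813. Scg3 was closest to Jagn1 (0.982), Scg5 to Igfbpl1 (0.983), Pcsk1n to Agtr2 (0.943) and Cpe to Tspan6 (0.989). Chga and Chgb reached 0.825 with each other over all sums and 0.935 without tumor 1. These are descriptions across sums that share libraries, depth and the 44 cells of tumor 1 at or near 0. The 113 tumor 1 cells of cluster 2 were low too, with 0 Chga, 4 Chgb, 3 Scg3, 1 Scg5, 2 Pcsk1n and 1 Cpe UMIs.

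The wider secretory granule machinery was taken as a list of 84 genes in 5 roles, of which 49 were tested. In tumor-like cells 20 were called higher and 0 lower by edgeR at the same threshold (at an unadjusted p under 0.05, 23 and 2). DESeq2 called 2 higher and 5 lower, where of all 9036 genes it called 178 higher and 1718 lower. The edgeR calls are 20 of 49 against 11.9% of all genes tested. The median log2 fold change of the 49 was 1.32 against 0.16 for all genes. Most of the 49 were at 0 in at least 1 class, so that this median depends on the prior count. Those above 0 in every class lay on both sides of 0, from -1.20 (Ctsl) to 2.29 (Rab3a), and their median was not computed. The calls lay mostly in docking and release, with 13 of 17 tested, against 1 of 6 processing enzymes and helpers, 3 of 8 membrane genes, 2 of 13 formation genes and 1 of 5 peptide cargo genes. Of the genes called, Rab3a and Syt11 alone were above 0 in every class, and CPM gives the size for the others.

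In docking and release, the highest fitted fold changes, which depend on the prior count, were those of Rab3c, a GTPase of secretory vesicles, with 75.7, 46.9 and 40.1 CPM in tumor-like cells against 0.681, 9.71 and 13.8 CPM in the other classes (adjusted p = 0.0113, edgeR), and Rims2, an active zone protein, with 45.1, 52.4 and 43.2 CPM against 1.62, 14.0 and 15.4 CPM (0.0148). Both were above the other classes in 3 of 3 tumors. The lowest were Rab3d and Vamp2, a vesicle SNARE of wide use, which were not called. Vamp2 had 101, 73.1 and 90.3 CPM in tumor-like cells against 35.8, 49.6 and 64.5 CPM in the others, and Rab3d at most 3.22 CPM in tumor-like cells.

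Among membrane genes, Slc18a2, the monoamine transporter VMAT2 (14.5, 26.2 and 19.7 CPM, adjusted p = 0.0169), and Cyb561, the cytochrome that regenerates ascorbate for dopamine hydroxylation (53.2, 56.3 and 45.3 CPM, adjusted p = 0.0113), rose by edgeR, with Sv2c (0.018). Atp6ap1 and Atp6ap2, accessory subunits of the proton pump, had the lowest fold changes and were not called. Formation genes called were Sytl4, the granule effector granuphilin (124, 102 and 143 CPM, adjusted p = 0.0211, edgeR), and Vps53, while Bace1, Ccdc186 and Arf1 did not pass, with log2 fold changes of 1.42, -0.65 and -0.45.

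In processing, only Peg3 was called (169, 159 and 144 CPM against 8.42, 53.9 and 58.4 CPM, adjusted p = 0.0339, edgeR). Peg3 is an imprinted zinc finger gene and not an enzyme. Pam, the enzyme that amidates peptides, was at log2 0.33 ± 0.47 (SE of the edgeR fit, n = 3 tumors) with an adjusted p of 0.886. Cpd was at -0.90 ± 0.49 and Ctsl at -1.20 ± 0.53, and edgeR called none of these genes. The SE comes from 1 fit over the sums of all classes and is not a spread between the 3 tumors. For peptide cargo, Npy, neuropeptide Y, was called (19.3, 60.8 and 53.4 CPM in tumor-like cells, adjusted p = 0.0364, edgeR). Cartpt varied from 22.3 CPM in tumor 2 to 183 CPM in tumor 3 and was not called (adjusted p = 0.151, edgeR), but with the tumor as a block it was (0.00182). Nts had at most 1.53 CPM, and Penk, the enkephalin precursor of adult chromaffin cells, had 0 UMIs in tumor-like cells.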

How the data were processed

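For each of 3 tumors the authors deposited raw UMI counts per gene and barcode (10x Genomics 3′ chemistry, Cell Ranger 3.1.0 and mm10 per the submitters' processing notes). The authors also deposited normalized values on a natural log scale (a whole corrected count with 1 added). The study lists removal of ambient RNA and doublets and limits set per tumor for these. Barcodes with normalized values were the kept cells, and results come from their raw counts. No doublets were removed further. The corrected counts exceeded raw in 12.3%, 0.565% and 0.290% of entries of tumors 1, 2 and 3 and lack ribosomal genes, so they serve as an alternative only. The members and lists were chosen with earlier results of these data known.

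Cells were clustered with Seurat 5.3.0 (2000 variable genes without members and granule lists, canonical correlation integration, 30 dimensions, resolution 1). A cluster was named from at least 3 markers of 2-fold over the other clusters in 10% of cells. Counts were summed per tumor and class of at least 10 cells and tested with edgeR 4.0.16 (filterByExpr, TMM, quasi-likelihood, Benjamini-Hochberg, threshold 0.05), with DESeq2 1.42.0 as an alternative. Replicates are 3 animals. Named genes are all members, the 2 highest and 2 lowest fold changes per role of the granule list, and 3 genes most like each member of at least 50 CPM. Others are named as called. Some items are not reported here. Classes of a tumor come from 1 animal: deviations from class means correlated at a median of 0.264 over 63 same-tumor pairs and -0.192 over 126 pairs of different tumors. The code was tested on simulated data. Classes were formed from the same cells as the tests.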

Additional observations from a re-analysis of the deposited data

Results flagged for a closer look

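Barcodes left out by the authors, 1343, 3106 and 3523 in tumors 1, 2 and 3, held Chgb and Chga above their level in the other classes of kept cells, which is why they are listed here. Chgb was at 65.7 CPM (308 UMIs) in tumor 1, at 2509 CPM (47889 UMIs) in tumor 2 and at 1629 CPM (24157 UMIs) in tumor 3, against 485, 831 and 908 CPM in kept tumor-like cells. Chga was at 10.2, 698 and 301 CPM. In tumors 2 and 3 both genes thus stood above kept tumor-like cells, by 3.02 and 1.80 times for Chgb, while the neuronal reference list stood at 0.757 and 0.566 times its tumor-like level. Mitochondrial genes made 12.0%, 34.3% and 35.4% of the UMIs of these barcodes, against 3.12%, 5.48% and 3.96% in kept tumor-like cells. These CPM count mitochondrial UMIs in the total, so a larger mitochondrial share lowers the CPM of every other gene. A list below its tumor-like level here is thus not shown to be below it among non-mitochondrial UMIs. Levels of these barcodes were not recomputed without mitochondrial UMIs. Their cell types were not assigned, and for 6 of the 10 genes the 95% Poisson interval in them lay above that of the other classes in 3 of 3 tumors. The share over all genes was not computed here either.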

How the results depend on the processing

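Of 7 tested members (5 to 9 under the alternatives), edgeR called 4 higher in tumor-like cells, against 7 without TMM factors, 2 with RLE factors, 9 without the filter on low counts, 8 without integration, 7 in cells of at least 1000 UMIs and 0 with the authors' corrected counts (4 at an unadjusted p under 0.05). DESeq2 called 0 (3 at an unadjusted p). Of all genes tested, edgeR called 1073 of 9036 higher, against 2501 of 9036 without TMM, 74 of 9036 with RLE and 4184 of 19649 unfiltered. It called 1824 of 8657 without integration, 3161 of 11766 in cells of at least 1000 UMIs and 112 of 5926 with corrected counts. DESeq2 called 178 of 9036 higher and 1718 lower. The same shares stand beside the granule list counts below. With the tumor as a replicate block 7 were called, and 2 with the other classes pooled and no block. Leaving out 1 tumor gave 2 to 7. Calls in non-tumor classes numbered 4, against 11 without the filter, 2 at resolution 0.5, 2 without integration and 1 to 4 without 1 tumor. No mesothelial-like class was formed at resolution 0.5 or without integration, or summed without tumor 1, so its call could not occur. Genes higher in CAF-like cells numbered 1412 of 9036, against 2387 of 19649 unfiltered, 1305 of 7955 at resolution 0.5 and 1217 of 8657 unintegrated. In endothelial-like cells they numbered 956, against 1530, 1023 and 922 in the same order. Without tumor 1, 2 or 3, genes higher in CAF-like cells numbered 650 of 4275, 1379 of 12100 and 1433 of 11636. Granule list genes called numbered 20, against 3 (RLE), 2 with 5 lower (DESeq2), 46 (no filter), 33 (1000 UMIs), 2 (corrected counts), 13 (pooled, block), 9 (pooled, no block) and 5 to 26 without 1 tumor. The median log2 fold change of all genes was 0.16, against 0.61 without TMM, -0.26 with RLE and -0.54 with DESeq2. Mean Chgb was 741 CPM, against 975 CPM without integration. Tumor 1 then went from the lowest (485 CPM) to the highest (1189 CPM), on 25 cells and with its richest cell not set apart. Of these cells 14 lay in 1 cluster, and a globin-led cluster with 294 tumor 1 cells was left unnamed. Pairs above free RNA numbered 8, against 4 without integration and 4 to 7 without 1 tumor. The mean share of tumor-like cells with a Chgb UMI was 23.9%, against 39.0% at 1000 UMIs and 49.1% unthinned. The causes were not tested. Scg2, Vgf and Pcsk1 did not pass the count filter, and Pcsk1 had 0 UMIs.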
